A study of Rattus norvegicus with 2 samples.

Results

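Messenger RNA of the gap junction genes Gja1, Gjc1, Gjb2 and Gjb6, the pannexin genes Panx1 and Panx2 and the junction scaffold gene Tjp1 was examined in rat C6 glioma cells with and without small molecule treatment. These 7 genes were chosen by name, and their values are the probe sets of the array that the platform annotation assigns to that single symbol. Of the 7 genes, 6 had such a probe set, each with exactly 1, among 18166 named genes on the array. Gjc1, encoding the connexin Cx45, had none and was not analysed here.

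C6 is an established line of rat glioma cells, grown per the labels in DMEM with 10% serum and antibiotics. The first group (C6) is 1 array of undifferentiated cells, and the second (SMiG) is 1 array of C6 cells exposed to small molecules. The labels disagree on the treatment: those of the SMiG sample name forskolin, which activates adenylyl cyclase, rapamycin, which inhibits mTORC1, and I-BET151, which inhibits BET bromodomain proteins, with no dose or time. The protocol text attached to both samples instead names CHIR99021, a GSK3 inhibitor, given for 35 days at 20 µM together with 100 µM forskolin, and the sources used here do not settle which holds. Neither the vehicle nor the time in culture of the C6 group is stated. The series asks whether glioma cells can be turned toward a glial state that divides less. With 1 array per group, no test across samples was possible, no difference has a replicate check, and the number of arrays limits the precision.

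Connexins assemble as hexamers in the plasma membrane, and hexamers of apposed cells dock to form gap junction channels that pass ions, second messengers and metabolites. Astrocytes are coupled mainly through Cx43, the product of Gja1, and Cx30, the product of Gjb6, with Cx26, the product of Gjb2, in some of them. Pannexins form large-pore channels in the membrane that release ATP and do not usually make junctions between cells. ZO-1, the product of Tjp1, is a scaffold protein whose PDZ domains bind the carboxyl end of Cx43 and of many other junction proteins. C6 cells are a common recipient for connexin transfection because of their low coupling.

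The promoters of the astrocyte connexins are shown here because Gja1 was the only one of them with a signal above background. Each is 300 bases of the RefSeq assembly GRCr8, from 250 bases before an annotated transcript start to 50 after it, written 5′ to 3′ on the strand of the gene. Capitals mark matches to an AP-1 site (TGANTCA), a cAMP response element (TGACGTCA) or a GC box (GGGCGG), searched on both strands. The Gja1 window is chr20:36302314-36302613 on the plus strand, the Gjb2 window chr15:35381904-35382203 on the minus strand, and the Gjb6 window chr15:35410089-35410388 on the minus strand.
Gja1: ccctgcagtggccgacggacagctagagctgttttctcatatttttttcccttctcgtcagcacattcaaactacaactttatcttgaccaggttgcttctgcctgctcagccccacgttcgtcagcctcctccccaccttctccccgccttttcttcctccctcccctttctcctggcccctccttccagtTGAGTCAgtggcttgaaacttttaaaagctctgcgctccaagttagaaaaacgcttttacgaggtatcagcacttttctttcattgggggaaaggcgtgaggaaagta
Gjb2: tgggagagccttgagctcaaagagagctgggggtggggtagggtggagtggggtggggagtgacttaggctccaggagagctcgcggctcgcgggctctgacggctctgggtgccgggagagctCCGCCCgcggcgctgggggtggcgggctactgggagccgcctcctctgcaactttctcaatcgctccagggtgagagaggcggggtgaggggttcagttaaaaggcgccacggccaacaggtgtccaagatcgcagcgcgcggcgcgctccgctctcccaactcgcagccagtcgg
Gjb6: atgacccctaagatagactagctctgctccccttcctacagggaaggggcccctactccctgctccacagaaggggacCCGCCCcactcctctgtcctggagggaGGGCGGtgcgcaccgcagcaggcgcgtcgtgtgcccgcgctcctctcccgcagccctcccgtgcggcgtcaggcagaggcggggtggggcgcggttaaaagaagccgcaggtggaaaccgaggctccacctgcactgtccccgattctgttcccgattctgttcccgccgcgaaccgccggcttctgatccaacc
The capitals in the Gja1 window are a single AP-1 match, TGAGTCA, from 58 to 52 bases before the start. Such a match is found in 7.33% of the 33469 promoter windows in the table. Neither a cAMP response element, found in 1.83% of windows, nor a GC box, found in 33.1%, was matched in the Gja1 window. The capitals in the Gjb2 window are 1 GC box and those in this Gjb6 window are 2, and neither window had an AP-1 match. All 6 measured members had a window, 7 in all, since Gjb6 had a second one at a start further inside the gene, with 1 GC box. The windows of Panx1 and Panx2 held 1 GC box each, that of Panx2 from 29 to 24 bases before the start. The Tjp1 window matched none of the motifs, and it lies at an annotated start 179658 bases inside the gene, so it is not the promoter at the outer end. The Gjb2 window likewise lies at a start inside the gene, by 11864 bases. The starts of the Gja1 window and of the Gjb6 window shown lie 74 and 511 bases inside. The AP-1 match of Gja1 is thus before this start but within the annotated gene. The GC content was 50.3% for Gja1, 68.0% for Gjb2 and 33.7% for Tjp1, with a median of 51.7% over all windows. A match of letters is a description of the sequence, and no binding was measured.

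Levels are log2 values as deposited, and a difference is the SMiG level minus the C6 level throughout. The 1340 receptor genes of the olfactory and vomeronasal systems were treated as silent in these cells, and the 95th percentile of their levels on an array, 4.83 for C6 and 4.96 for SMiG, served as its floor. A gene was counted as detected when either array read above its floor. By this measure 3 of the 6 measured members were detected: Gja1, Panx2 and Tjp1.

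Gja1 was the connexin with a clear signal, and its level was lower in the treated cells. Probe set 17755182 read 8.19 in C6 and 5.90 in SMiG, both above the floor of their array. The difference was −2.30, which is a 4.92-fold lower level in SMiG. In bulk RNA such as this, fewer cells that make a transcript and less of it per cell cannot be told apart. Among the 10941 detected genes, SMiG was lower by 2-fold or more in 6.52% and higher by 2-fold or more in 3.19%, so that 1 lower gene among 3 detected members is not by itself a result about the group. A difference as low as that of Gja1 or lower was found in 0.914% of detected genes. The silent receptor genes give the spread between the arrays near background: their differences had an SD of 0.32 and ran from −1.38 to 1.47. The Gja1 level in SMiG was still reached or passed by 16 of the silent genes (1.19%), so it lies close to background. Against a stricter floor, the 99th percentile of the silent genes in SMiG at 5.99, the Gja1 level in SMiG is not above background and the difference is a bound, at least 4.60-fold.

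**Figure D1:**
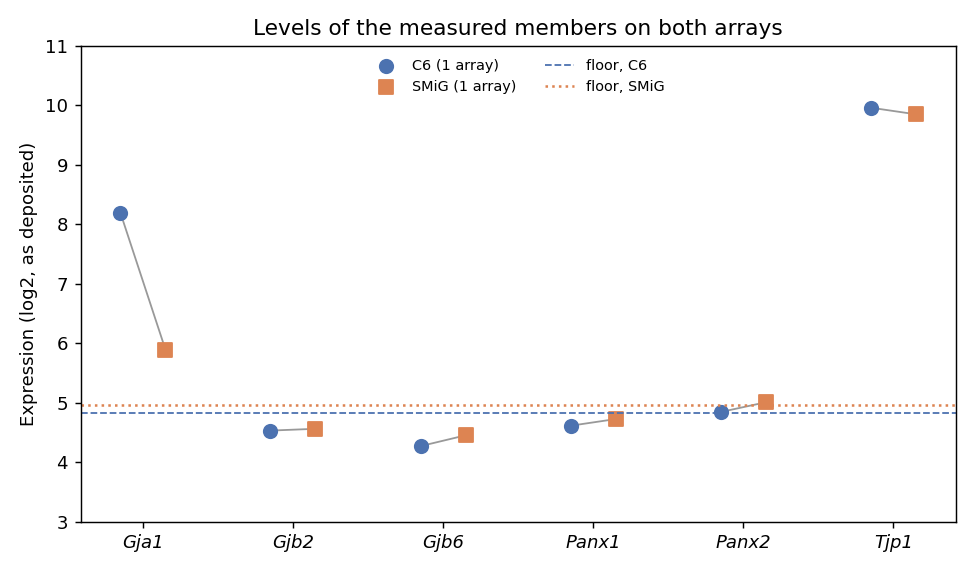
Levels of the 6 measured members (log2, as deposited) on the C6 array (circles) and the SMiG array (squares), with the floor of each array as a dashed or dotted line. Gja1 goes from 8.19 to 5.90, Tjp1 stays near 9.9 on both arrays, and the other 4 lie at or below about 5.0.

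The other astrocyte connexins were not detected. Gjb2 (probe set 17703307) read 4.53 in C6 and 4.56 in SMiG, and Gjb6 (probe set 17703315) read 4.27 and 4.45. All 4 of these values were below the floors, so no fold is given for either gene. Neither array thus gave a measurable signal for the transcripts of Cx26 or Cx30.

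The pannexin genes were at background. Panx1, which encodes the widely expressed pannexin that releases ATP, read 4.61 in C6 and 4.73 in SMiG (probe set 17849630), below both floors. Panx2, which encodes a pannexin best known from the nervous system, read 4.84 and 5.01 (probe set 17831530), only just above the floors. Its difference was 0.16, smaller than the SD of 0.32 among silent genes, and it lay below the stricter floor on both arrays.

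Tjp1 had a strong signal that differed little between the arrays. Probe set 17633748 read 9.96 in C6 and 9.85 in SMiG. The difference was −0.11, a ratio of 1.08 of C6 over SMiG, and 19.7% of detected genes had a smaller or equal absolute difference. This is smaller than the SD of 0.32 among the silent genes, which were measured near background, and lies beside the −2.30 of Gja1, whose product ZO-1 binds. Whether these differences vary between cultures cannot be judged from 1 array per group.

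**Figure D2:**
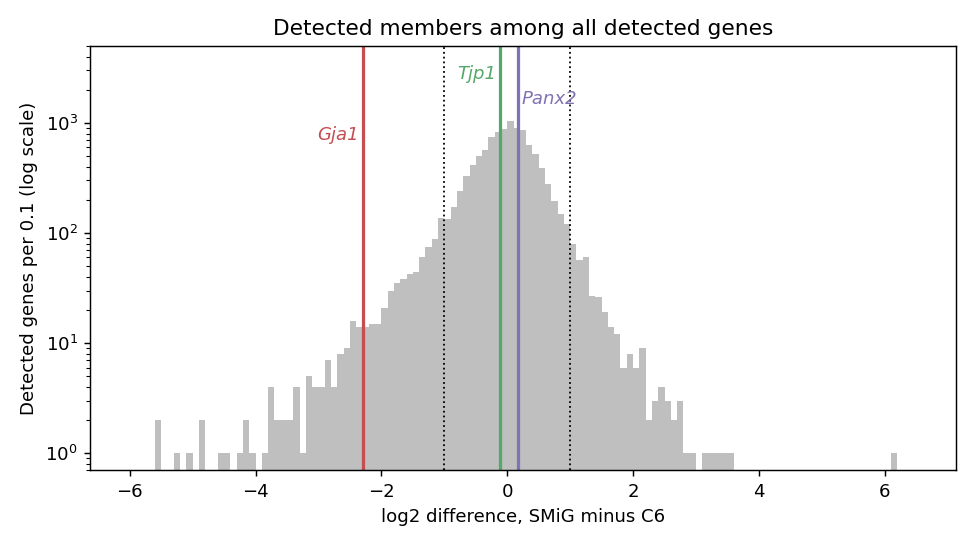
Differences (log2, SMiG minus C6) of the 10941 detected genes in bins of 0.1, with the number of genes on a log axis, the 2-fold limits dotted and the 3 detected members as coloured lines. Gja1 at −2.30 lies in the lower tail, while Tjp1 at −0.11 and Panx2 at 0.16 lie near the centre.

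The wider connexin family was mostly silent in these cells. Of 20 connexin genes listed, 15 were measured and 5 detected. By 2-fold or more, 1 was lower in SMiG (Gja1) and none higher, beside 6.52% and 3.19% of all detected genes. A count this small is not a result about the family. The median difference was 0.02, against −0.01 for all detected genes. Gjc3, encoding a connexin of oligodendrocytes and Schwann cells, read 5.23 in C6 and 4.49 in SMiG, at least 1.20-fold lower. Gjd2, encoding the connexin of electrical synapses between neurons, read 4.76 and 5.05. Gja4, known from endothelium, read 5.11 and 5.13, and Gjb5 read 5.37 and 5.62. Apart from Gja1, none of the 5 passed the stricter floor. Gjb1, a connexin of myelinating cells, was below the floor on both arrays at 3.64 and 3.49.

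Other large-pore channels were measured beside the pannexins. Of 14 genes of this list, all measured, 7 were detected. SMiG was lower by 2-fold or more in 1 of these and higher in none, and the median difference was −0.09. Among all detected genes 6.52% were lower and 3.19% higher, and 1 gene is not a result about the list. The lower gene was Lrrc8c, encoding a subunit of the volume-regulated anion channel, at 8.19 in C6 and 6.87 in SMiG, 2.50-fold lower. Its partner Lrrc8a, the obligatory subunit of that channel, read 8.18 and 8.67, a difference of 0.49. Lrrc8b and Lrrc8d had differences of −0.75 and −0.09. The calcium homeostasis modulator gene Calhm5 read 5.46 and 4.53, at least 1.41-fold lower, and Panx3 was below both floors. Calhm5 did not pass the stricter floor on either array.

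Among scaffold and membrane proteins of junctions, Cldn1 was the 1 detected gene past 2-fold, a count that shows nothing about the group beside the 6.52% of all detected genes that were lower and the 3.19% that were higher. Of 18 scaffold genes listed, 14 were measured and 12 detected, none of them past 2-fold, with a median of 0.01. The highest was Magi3, encoding a membrane-associated guanylate kinase, at 6.57 in C6 and 7.49 in SMiG. The lowest was Patj, encoding a scaffold of the Crumbs polarity complex, at 6.34 and 5.48. Tjp3, encoding the related protein ZO-3, was at 5.82 and 5.22. Of 25 tight junction membrane genes, 24 were measured and 11 detected. By 2-fold or more, 1 was lower and none higher, and the median was 0.10. The lower one was the claudin gene Cldn1, at 5.64 in C6 and 4.28 in SMiG, but with SMiG below the floor its bound is only 1.59-fold. Jam3, encoding a junctional adhesion molecule, read 7.90 and 8.51. Occludin (Ocln), a membrane partner of ZO-1, was below the floor on both arrays at 4.05 and 4.19.

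**Figure D3:**
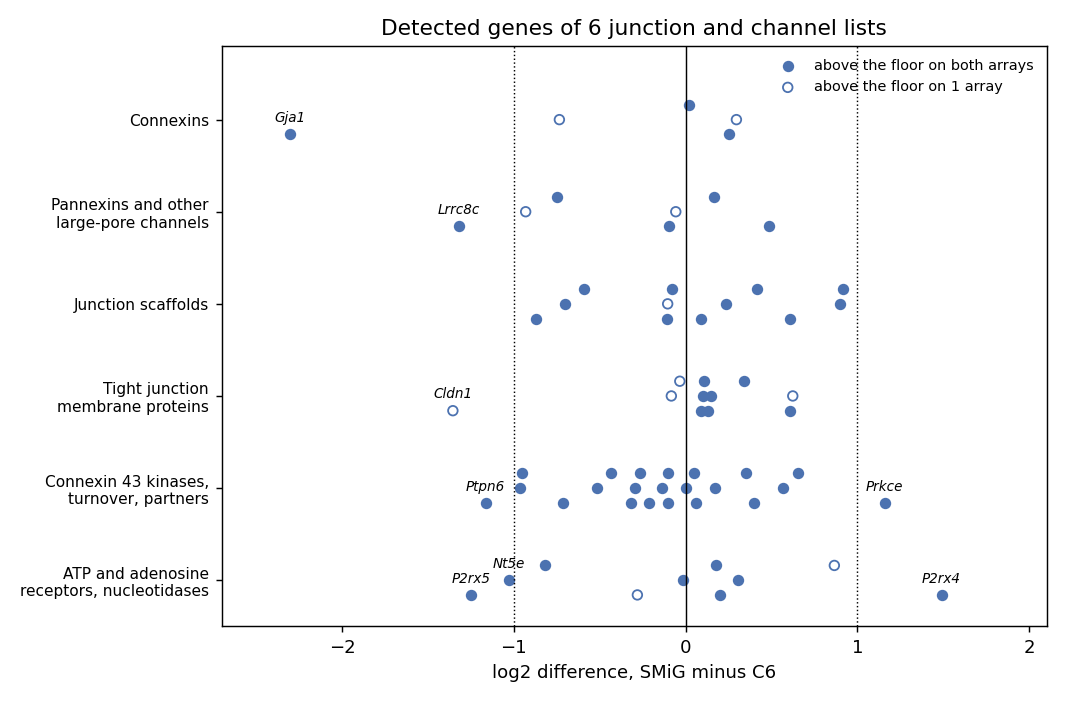
Differences (log2, SMiG minus C6) of the detected genes in 6 lists of junction, channel and purinergic genes, 1 point per gene, filled where both arrays were above the floor and open where 1 was. Dotted lines mark 2-fold, and genes past it are named; Gja1 at −2.30 is the lowest point.

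Kinases, turnover factors and partners of Cx43 lay on both sides. Of 26 genes listed, 24 were measured and 22 detected. By 2-fold or more, 1 was higher and 1 lower in SMiG, and the median was −0.12. These counts are read beside 3.19% higher and 6.52% lower among all detected genes and are not a result about the list. Prkce, encoding protein kinase C epsilon, a kinase that phosphorylates Cx43, was 2.23-fold higher in SMiG, at 7.88 against 6.72. Prkcd, encoding the delta isoform, had a difference of −0.96, and Prkca, the alpha isoform, 0.35. The lower gene past 2-fold was Ptpn6, encoding the tyrosine phosphatase SHP-1, at 6.93 in C6 and 5.77 in SMiG, at least 1.91-fold lower against the stricter floor. Src, whose kinase closes Cx43 channels, read 7.75 and 7.49. Nedd4, encoding a ubiquitin ligase that binds Cx43, read 11.95 and 11.65. Cav1, encoding caveolin-1, read 11.09 and 11.74, and Ctnnb1, encoding beta-catenin, 10.42 and 10.99. The cadherin gene Cdh2 differed by −0.10. The autophagy receptor gene Sqstm1 read 8.51 and 7.56, a difference of −0.95.

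Receptors for ATP and adenosine, which respond to ATP released through hemichannels and pannexins and to its breakdown product, were detected in part. Of 22 genes listed, 21 were measured and 10 detected. By 2-fold or more, 1 was higher and 2 were lower in SMiG, and the median was 0.08. The shares over all detected genes were 3.19% higher and 6.52% lower, and counts this small are not a result about the list. P2rx4, encoding an ATP-gated cation channel, was 2.81-fold higher at 8.35 in SMiG against 6.87 in C6. P2rx5, encoding another such channel, was 2.37-fold lower at 4.97 against 6.22, with the SMiG level just above the floor and a bound of 1.17-fold against the stricter one. Nt5e, encoding the enzyme that makes adenosine outside the cell, was 2.04-fold lower at 7.23 against 8.25, and just inside 2-fold after quantile normalization, with a difference of −0.98. P2rx7, encoding the receptor often studied with pannexin-1, was below both floors at 4.76 and 4.42.

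The genes whose levels on the pair of arrays lay nearest to those of Gja1 were Faim2, Tnfaip2, Rgs7bp, Met and Nfxl1. Likeness is the distance in the plane of the C6 and SMiG levels, and it ranged from 0.038 for Faim2 to 0.17 for Nfxl1 on the log2 scale. It rests on 2 arrays and is a description of them. Met, encoding the receptor for hepatocyte growth factor, read 8.34 in C6 and 5.85 in SMiG.

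The labelled cell type was checked against marker genes. Among astrocyte markers, 5 of 10 measured genes were above the floor on each array, Gja1 among them, and Aqp4, Slc1a2 and Sox9 were below both floors. The other detected astrocyte markers lay on both sides: Fgfr3 was 3.58-fold and S100b 2.30-fold higher in SMiG, Aldoc had a difference of 0.89, and Gfap one of −0.56. Among oligodendrocyte markers 6 of 10 measured were above the floor in C6 and 8 in SMiG, but Mbp lay only 0.032 and Mog 0.00012 above the SMiG floor. Of the 9 detected, 6 had a positive and 3 a negative difference: Cnp was 2.87-fold and Sox10 2.02-fold higher in SMiG, the latter with a difference of 0.99 after quantile normalization, while Gjc3 stood at −0.73, Myrf at −0.38 and Olig1 at −0.20. Markers of other cell types were detected in part: 4 of 9 measured for neurons, 3 of 8 for microglia, 4 of 6 for endothelium, 5 of 7 for fibroblasts and 3 of 8 for epithelium. The neuron markers Tubb3 and Stmn2 were below both floors, whereas Map2 read 8.80 in C6 and 9.01 in SMiG. Snap25 read 5.65 and 6.17, and Rbfox3 5.12 and 4.94, the latter above the floor only in C6. Of the 4 detected neuron markers, 3 had a positive difference and 1, Rbfox3, a negative one. Among microglia markers Csf1r and Aif1 were below both floors and Tmem119 read 5.82 and 5.01. Cd68 read 5.37 and 4.69, above the floor only in C6. P2ry12 went the other way, at 4.46 and 5.32, above the floor only in SMiG. None of these 3 detected genes passed the stricter floor. Among endothelium markers Cdh5 was below both floors, Tek read 5.83 and 4.98 and Cldn5 5.13 and 5.24. Some genes listed as markers of other cell types were lower in SMiG, as Gja1 was. Flt1 of the endothelium list was at least 2.82-fold lower (at least 1.38-fold against the stricter floor). Epcam of the epithelium list was 4.11-fold lower (at least 2.68-fold against that floor). Col1a1 and Pdgfra of the fibroblast list were 2.23-fold and 2.24-fold lower. A place in a list does not show that such cells were present. The mean level over the measured markers went from 5.18 in C6 to 4.69 in SMiG for endothelium (6 genes). It went from 5.80 to 5.47 for fibroblasts (7 genes) and from 4.54 to 4.49 for epithelium (8 genes). For microglia (8 genes) it went from 4.22 to 4.04, and for neurons (9 genes) from 5.02 to 4.96. It was higher in SMiG for astrocytes, at 6.10 and 6.24, and for oligodendrocytes, at 6.01 and 6.28 (10 genes each). All these means include genes below both floors. The fibroblast genes Dcn and Lum and the epithelial gene Cdh1 were below both floors, whereas Thy1 (5.24 and 5.30) and Col3a1 (5.39 and 5.55) of fibroblasts and Cldn4 (5.06 and 5.17) of epithelium were above both. Whether cells of these other types were present, or had a part in the Gja1 difference, was not tested.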

How the data were processed

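The values of 36685 probe sets on each array came from the deposited series table. The labels' protocols give total RNA, sense cDNA, fragmentation and terminal biotin labelling for whole-transcript GeneChip arrays. The authors' deposited values were taken as log2 levels. The base was read from their range, 1.26 to 13.09, whose upper end passes 11.09, the most that natural logs of 16-bit intensities can reach. How background was corrected and arrays were normalized is not given in the sources used here. Medians of the C6 and SMiG columns, 4.84 and 4.86, are close, and no further scaling was applied.

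Probe sets with 1 symbol in the platform annotation (18511) were averaged per gene. Those with several symbols (575) or none (17599) were left out. Gene numbers matched RefSeq for 18394 probe sets and changed 0 symbols. Fold changes are 2 to the power of the log2 difference. Where the dimmer level did not pass its floor, the fold is the brighter level against that floor and is given as at least that fold. Counts past 2-fold use measured values. No p-value was computed.

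Members and gene lists were chosen with earlier results of these data known. The rule for named genes takes each member and the detected genes of each list past 2-fold, or otherwise its highest and lowest detected genes. It also takes the 5 genes nearest to Gja1. Other genes were named after their values were seen. RefSeq protein sequences were planned but not used here. The steps were tested on simulated data, with changes placed only in genes well above the floor. Recovery of a change near the floor, where Gja1 lies in SMiG, was not tried. Alternatives were median centring, quantile normalization, removal of a lowess trend (span 0.3), the brightest probe set, each probe set alone, other floors and other fold thresholds. Computation was in Python 3.11.15 (pandas 2.3.3, numpy 2.4.6, statsmodels 0.14.6), with figures from matplotlib 3.10.9.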

Additional observations from a re-analysis of the deposited data

How the results depend on the processing

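Under centring, quantile normalization, removal of the trend, the brightest probe set, each probe set alone and raising values to the floor, the Gja1 difference ranged from −2.30 to −2.27. The Tjp1 difference ranged from −0.11 to −0.09. Several of these could not change them. Each measured member has 1 probe set, so the probe set alternatives return the same value. Raising to the floor leaves Gja1 and Tjp1 as they were, above both floors. Centring shifts all genes by the same small amount. No member's difference moved by more than the SD of the silent genes, 0.32. That SD is a spread near background between 2 arrays and does not replace the missing replicate error. Of all detected genes, 713 were lower and 349 higher by 2-fold or more, and within the members and the 6 junction, channel and purinergic lists 6 and 2 were. At 1.5-fold these counts were 1650, 1140, 16 and 9, and at 4-fold they were 143, 40, 1 and 0, since the threshold itself sets them. With a floor set by the 99th percentile of silent genes, 2 members were detected, Gja1 and Tjp1, and with no floor 6 were counted. At that stricter floor, and with values raised to the floor, Cldn1 was no longer counted as at least 2-fold lower. With the trend removed, Calhm5 passed 2-fold at −1.01, but its SMiG level as deposited lay below the floor. Over the single lists, 225 counts stayed within 1.5 times and 27 small counts did not. Many of the 225 were counts of 0 that stayed at 0, so the tally says little about stability. Of the genes named besides the members, none changed sign among those past 2-fold under the scaling and probe set alternatives. No paired analysis was possible because each group has 1 array and no test was made. Signal over background limits Gjb2, Gjb6, Panx1 and Panx2, for which no difference was detectable on these arrays.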
